A study of Drosophila melanogaster with 2 samples.

Results

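The genes described here are bcd and 6 genes whose products place its RNA in the egg, all of Drosophila melanogaster: exu, swa, stau, Vps36, Vps25 and lsn. They were taken by name, and are 7 of the 13945 protein-coding genes annotated on the 6 chromosome arms used. Binding of Sry-delta, a zinc finger transcription factor, was mapped by chromatin immunoprecipitation followed by sequencing (ChIP-seq) in a transgenic fly strain that stably makes Sry-delta fused at its C-terminus to green fluorescent protein (GFP). Whole embryos of mixed sex, aged 0 to 24 h, were used, the chromatin was sonicated (size range 200 to 800 bp) and an antibody against GFP was used for the precipitation. There was 1 group with 2 libraries, labelled biological replicates 3 and 4, and no second condition. Both libraries carried the same tagged transgene and pooled many embryos, stages and cell types. The promoter that drives the transgene is not given in the sources used here, and the depth of the libraries is unknown. All values are therefore descriptions of 2 libraries, with no test between groups.

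bcd encodes Bicoid, a homeodomain protein that patterns the anterior of the embryo. Its RNA is made by the nurse cells of the ovary, moves into the oocyte and is held at the anterior end through its 3′ untranslated region. Exuperantia and Swallow, the products of exu and swa, act in this localisation, and Staufen, a protein that binds double-stranded RNA, keeps the RNA in place late in oogenesis and in the early embryo. Vps36, Vps25 and the lsn product, Larsen (Vps22), form ESCRT-II, an endosomal sorting complex best known for sorting membrane proteins for degradation. In flies ESCRT-II is also needed to localise bcd RNA, and Vps36 binds that RNA. bcd is a known target of Sry-delta from earlier genetic work.

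Peaks are given in genome build dm6 with 1-based coordinates, and a distance is that of a peak's summit, its point of highest enrichment, from a transcription start site. The signal is the authors' own measure of a peak's height and has 1 scale in each list. Ranks are by signal within a list. The pooled list and the list of each library held 30000 peaks each, and the optimal set, the reproducible peaks, held the 6318 pooled peaks of highest signal. Optimal and pooled signals of a peak are thus the same number and are printed once.

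Stretches of promoter DNA are printed for 3 genes because they show part of what lies under the peaks at their start sites. Those peaks are in the optimal set for bcd and Vps36, and are weak and outside it for swa. The Sry-delta in vitro consensus, 13 bases long, was searched on both strands with at most 2 mismatches, and so was its 9-base core, TAGAGATGG, which is part of it, with none. Matches are in capitals, where they read as the reverse complement of the motif, and the printed strand is the minus strand of Release 6 (RefSeq sequence), so that each gene begins just after the last base. The first stretch is the 250 bases upstream of bcd, chr3R:6759467-6759716. The second is all the DNA between Vps36 and its divergent neighbour Liprin-beta, chr3L:13513113-13513253. The third is all the DNA between swa and its divergent neighbour Marf, chrX:6365709-6365948.
bcd upstream: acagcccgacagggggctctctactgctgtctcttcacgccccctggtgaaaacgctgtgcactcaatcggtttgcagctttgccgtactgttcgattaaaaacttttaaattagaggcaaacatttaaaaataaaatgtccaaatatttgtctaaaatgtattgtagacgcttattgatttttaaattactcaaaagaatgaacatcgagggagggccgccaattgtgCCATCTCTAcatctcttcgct
Vps36 to Liprin-beta: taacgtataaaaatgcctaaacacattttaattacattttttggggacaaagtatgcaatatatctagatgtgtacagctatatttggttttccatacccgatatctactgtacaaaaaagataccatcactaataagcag
swa to Marf: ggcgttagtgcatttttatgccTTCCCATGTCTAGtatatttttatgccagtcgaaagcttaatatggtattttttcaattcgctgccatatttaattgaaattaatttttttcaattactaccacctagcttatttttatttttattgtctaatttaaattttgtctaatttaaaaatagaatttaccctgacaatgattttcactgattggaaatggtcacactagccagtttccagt

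The bcd stretch held 1 exact copy of the core, on the opposite strand to the gene and centred 17 bp upstream of the start site. Among 19253 protein-coding start sites, 0.67% had an exact core in the 250 bp upstream. The copy lay inside the bcd peak of the pooled list and of both libraries, 141 bp from the pooled summit. Over the full 13-base consensus it had 3 mismatches. The swa stretch held 1 match to the consensus with 1 mismatch, centred 212 bp upstream of the swa start site and 35 bp from the weak pooled summit described below. This match, centred at 6365920, lay nearer to the start of Marf, at 6365949, than to that of swa. A match with at most 1 mismatch was found upstream of 0.405% of start sites. The Vps36 stretch held no match with fewer than 3 mismatches, and neither did the full 250 bp upstream of Vps36. That number was reached or bettered in the 250 bp upstream of 23% of start sites. These upstream searches, and the search for the core, were added after the peaks had been seen.

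In the optimal set, 4 of the 7 genes (bcd, exu, stau and Vps36) had a summit within 500 bp of a start site, against 39.0% of all protein-coding genes. With so few genes, nothing is read from the distance between these shares. All 4 summits lay upstream of the start, as did 88.1% of those of the 5445 protein-coding genes with one. The highest start-site signals of the 4 genes had a median of 1060, against 386 for the 5445. From 19.7% (stau) to 98.9% (Vps36) of those genes had a lower signal, so the 4 genes had no common level.

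**Figure D1:**
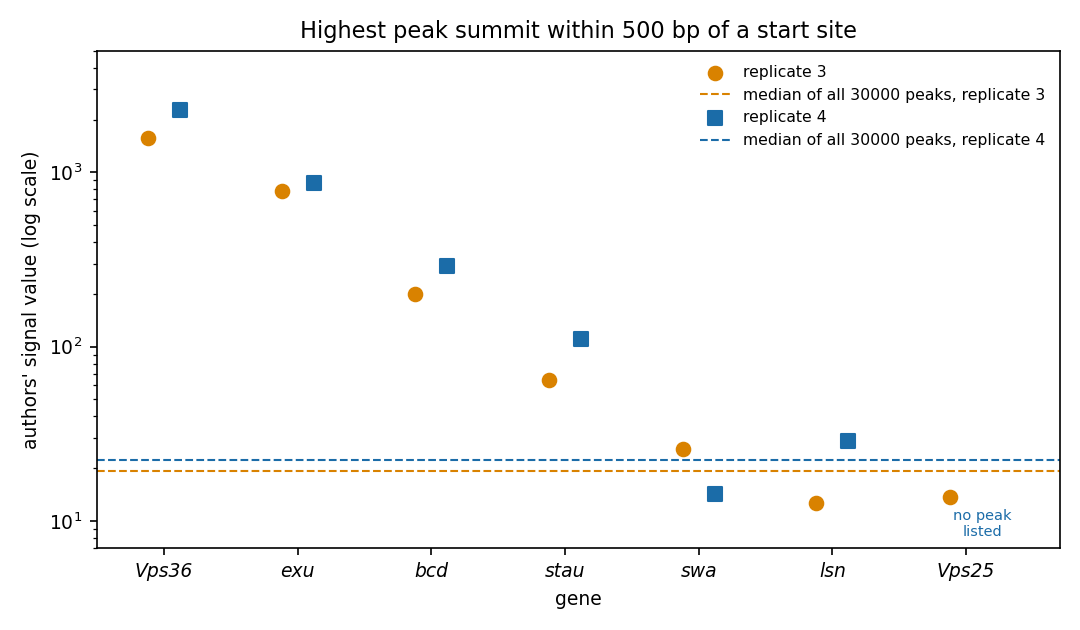
Highest signal of a peak summit within 500 bp of a start site (log scale) for each gene in the lists of replicate 3 (circles) and replicate 4 (squares), with the median signal of all 30000 peaks of each list as dashed lines. Vps36, exu, bcd and stau stand in this order in both libraries, swa and lsn change places around the medians, and Vps25 has a value in replicate 3 alone.

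In each library Vps36 was highest, then exu, bcd and stau. Vps36 had signals of 1584 in replicate 3 and 2274 in replicate 4, and exu had 781 and 867. For bcd the signals were 199.7 in replicate 3 and 289 in replicate 4, and for stau they were 64.2 and 111. Neighbours in this order differed in both libraries by more than the libraries differed from each other at the same gene. swa and lsn did not keep their order, with 25.9 and 14.2 for swa and 12.7 and 28.8 for lsn in replicates 3 and 4. The median of all peaks was 19.4 in replicate 3 and 22.4 in replicate 4, so swa and lsn lay on either side of it.

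bcd (FBgn0000166, 3R, 6755842 to 6759466, minus strand) has 5 transcripts with 1 start site. Its optimal peak, 3R 6759373 to 6759845, had a signal of 480 and rank 1698, with its summit 158 bp upstream of the start, between genes. The summits of both libraries lay nearby, 155 bp upstream in replicate 3 (rank 1791) and 178 bp upstream in replicate 4 (rank 1697). Of the 5445 protein-coding genes with a start-site summit, 57.8% had a lower signal than bcd. No start site of another protein-coding gene lay within 500 bp of this summit.

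Weaker peaks stood further upstream of bcd. The pooled list held 5 peaks in bcd or within 5 kb, the replicate 3 list 5 and the replicate 4 list 8, and each of the 5 in replicate 3 overlapped 1 in replicate 4. A pair stood 1388 bp and 1590 bp upstream, with pooled signals of 64.4 (rank 8832) and 48.2 (rank 11210). The first of the pair had signals of 23.2 in replicate 3 and 46.7 in replicate 4. The other pair stood 3424 bp and 3648 bp upstream, inside Ama, which encodes an immunoglobulin-domain adhesion protein. The nearer summit lay 297 bp downstream of an Ama start and the further one 290 bp upstream of a later Ama start. Their pooled signals were 92.9 (rank 6662) and 54.2 (rank 10116). None of the peaks in these pairs was in the optimal set. Inside the gene, which carries the localisation signal in its 3′ untranslated region, replicate 4 alone had a peak, in that region 3594 bp from the start, with a signal of 16 and rank 21496.

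**Figure D2:**
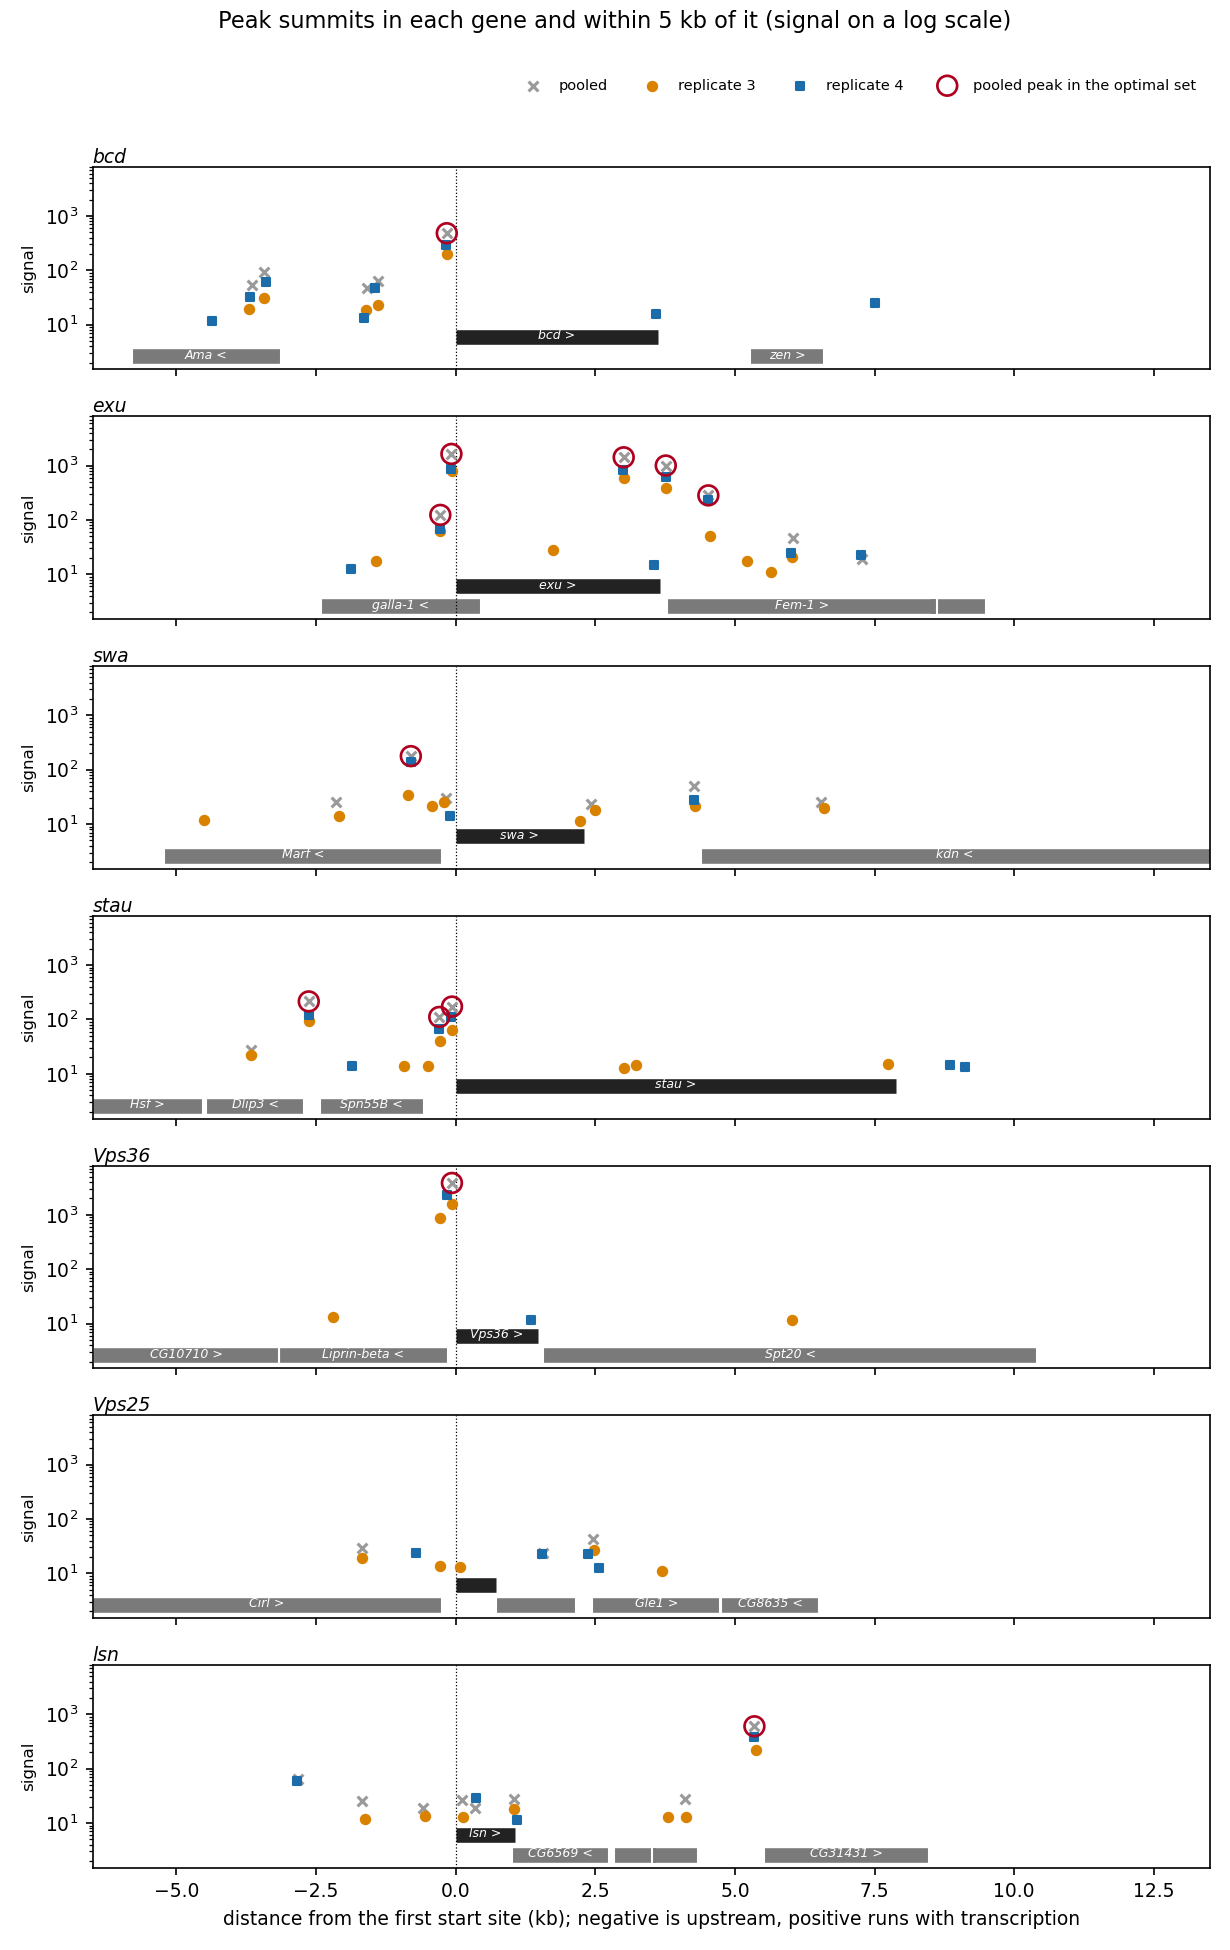
Summits of all peaks in each gene or within 5 kb of it, as signal (log scale) against the distance from the gene's first start site in kb, for the pooled list (crosses), replicate 3 (circles) and replicate 4 (squares), with rings around the 12 optimal peaks. Dark bars are the gene named at the left, grey bars neighbouring protein-coding genes (names are left off the shortest), and > marks transcription to the right. exu has 5 rings and Vps25 none, and the single rings of swa and lsn stand away from their start sites.

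The search was then widened to peaks that overlap a gene or lie within 5 kb of it. In the optimal set 6 of the 7 genes had one, against 64.4% of protein-coding genes, and Vps25 had none. Shares in the longer lists were near the top for members and background alike, with 7 of 7 genes against 79.4% in the pooled list, 80.8% in replicate 3 and 82.4% in replicate 4. The 7 genes held 12 optimal, 34 pooled, 49 replicate 3 and 36 replicate 4 peaks in all. Of the 12 optimal summits, 3 had the member's own start as the nearest protein-coding start (bcd, stau and Vps36), and 9 lay nearer to the start of a neighbour.

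exu (FBgn0000615, 2R, 20667427 to 20671083, minus strand) held the most optimal peaks of the 7 genes, with 5, and 94.5% of protein-coding genes had fewer. At its 5′ end, a region from 20670757 to 20671522 held a high summit and a low one. The high summit had a signal of 1640 and rank 421, with 781 in replicate 3 and 867 in replicate 4, and lay 75 bp, 397 bp and 667 bp upstream of the 3 annotated exu start sites. It lay 46 bp upstream of the nearest start site of galla-1, which runs the other way, and that site is 121 bp from the first of exu. galla-1 has a further start site at 20671559. Its gene body begins at 20670636 and so overlaps the 5′ end of exu, and both summits lay in its 5′ untranslated region. The low summit had a signal of 124 and rank 5371, and lay 274 bp, 596 bp and 866 bp upstream of the same 3 exu sites. Of the protein-coding genes with a start-site summit, 88.4% had a lower signal than exu.

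The other end of exu was occupied almost as highly. In a region from 20667040 to 20668407, a summit in the exu 3′ untranslated region had a signal of 1421 and rank 540, with 582 in replicate 3 and 822 in replicate 4. It lay 3009 bp downstream of the first exu start and 768 bp upstream of the start of the next gene, Fem-1. A further summit in this region, 15 bp upstream of the Fem-1 start, had a signal of 1004 and rank 835, with 386 in replicate 3 and 610 in replicate 4. The fifth peak, 20666425 to 20666760 in a Fem-1 intron, had a signal of 284 and rank 2722, and differed most between the libraries of all 12. It had a signal of 49.9 in replicate 3 (rank 5725) and of 229 in replicate 4 (rank 2133). In the coding sequence of exu, replicate 3 alone had a peak, 1751 bp downstream of the first start (27.6, rank 9874).

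swa (FBgn0003655, X, 6363418 to 6365708, minus strand) had no optimal summit within 500 bp of its start site. Its optimal peak, X 6366392 to 6366630, lay 802 bp upstream of the start, in an intron of Marf, the mitochondrial fusion factor mitofusin. The signal was 178 and the rank 4023, with 34 in replicate 3 (rank 8016) and 138 in replicate 4 (rank 3372). Between the starts of swa and Marf there was a low summit in each library. That of replicate 3 (25.9, rank 10529) lay 201 bp upstream of swa and 40 bp upstream of Marf. That of replicate 4 (14.2, rank 24259) lay nearer to swa, 102 bp upstream of its start. The pooled summit there (29.9, rank 17915) lay 177 bp upstream of swa and 64 bp upstream of Marf. These peaks cover the consensus match printed above. At this resolution they cannot be assigned to swa or to Marf. A pseudogene of swa, swaPsi, stands just downstream, and reads could be split between the copies, so values inside swa are uncertain. There the pooled list had a summit in swaPsi (23.3, rank 23509) and replicate 3 alone one in the swa 3′ untranslated region (11.4, rank 28412). Further downstream, 4276 bp from the start, a pooled peak of 50.2 (rank 10816) had signals of 21.5 in replicate 3 and 27.8 in replicate 4.

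stau (FBgn0003520, 2R, 18117896 to 18125779, minus strand) has start sites at 18125779 and 18123873. The nearest peak, 18125736 to 18125968, had a signal of 173 and rank 4104, with its summit 65 bp upstream of the first start and 1971 bp upstream of the second. Replicate 3 gave it 64.2 and replicate 4 gave it 111. Of the genes with a start-site summit, 19.7% had a lower signal. A lower peak, 18125830 to 18126313 (111, rank 5838), stood 293 bp upstream of the first stau start and 275 bp upstream of the start of Spn55B, which encodes a serpin and runs the other way. The third, 18128273 to 18128524, had a signal of 215 and rank 3459 and lay 86 bp upstream of the start of Dlip3 and 2629 bp upstream of stau. Within the gene body, only replicate 3 had peaks away from the start. Of these, 2 lay in coding sequence (12.9 and 14.6) and 1 in the 3′ untranslated region (15, rank 20697), all below the median of that list.

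Vps36 (FBgn0086785, 3L, 13511646 to 13513112, minus strand) had the highest peak of the 7 genes. The peak, 13512783 to 13513673, had a signal of 3852 and rank 37, and 98.9% of protein-coding genes with a start-site summit had a lower signal. Its summit lay 66 bp upstream of Vps36 and 76 bp upstream of Liprin-beta, a scaffold protein of the synapse, in the 141 bp between these genes that are printed above. The summit of replicate 3 (1584, rank 56) was 68 bp upstream of Vps36. The summit of replicate 4 (2274, rank 31) was 153 bp upstream, which is 11 bp inside Liprin-beta, and replicate 3 had a further summit of 861 (rank 308) 274 bp upstream. At this resolution the peak cannot be assigned to 1 of the genes. Inside the Vps36 gene away from the start there was a peak in replicate 4 alone (11.5, rank 29763).

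The other subunits of ESCRT-II had no such peak. Vps25 (FBgn0022027, 2R, 8625451 to 8626180, plus strand) had low summits in replicate 3 alone within 500 bp of its start, with signals of 13.7 (284 bp upstream, rank 23017) and 12.8 (83 bp downstream). Its highest pooled peak within 5 kb was at the start of Gle1, with a signal of 43.6 and rank 12231. lsn (FBgn0260940, 3R, 21865168 to 21866238, plus strand) had a low pooled summit 118 bp downstream of its start (26.5, rank 20465). The summits of the libraries there were 131 bp downstream in replicate 3 (12.7, rank 25244) and 357 bp downstream in replicate 4 (28.8, rank 11829). These 2 peaks overlapped, and the pooled list had a further summit near that of replicate 4, 353 bp downstream (19.1, rank 28643). Its optimal peak, 21870330 to 21870741, had a signal of 601 and rank 1416, with 221 in replicate 3 and 386 in replicate 4. That summit was 5349 bp from the lsn start and 164 bp upstream of CG31431. Among the 3 subunit genes, the start-site signals in replicate 3 were thus 1584 for Vps36, 13.7 for Vps25 and 12.7 for lsn.

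The limit of 5 kb decided 2 of these genes. The peaks furthest inside it were that of lsn, 4092 bp from the gene body, and the Dlip3 peak of stau, 2494 bp away. Just outside were a peak 5620 bp from Vps25 (263, rank 2923) and one 7115 bp from swa (544, rank 1552).

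The start-site count in the longer lists was 6 of 7 genes in the pooled list, against 58.1% of protein-coding genes. It was 7 of 7 in replicate 3 against 58.4%, and 6 of 7 in replicate 4 against 58.3%. The genes added to those of the optimal set, swa, lsn and, in replicate 3, Vps25, had low signals. In the pooled list, 9.04% of the protein-coding genes with a start-site summit had a lower signal than swa and 6.62% a lower one than lsn. In replicate 3 the shares were 20.8% for swa, 3.44% for lsn and 5.27% for Vps25, and in replicate 4 they were 4.04% for swa and 18% for lsn.

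Signals at the 12 optimal peaks were higher in replicate 4 than in replicate 3 at each peak. On the log2 scale, replicate 4 exceeded replicate 3 by a median of 0.60 (SD 0.66, n = 12 peaks, range 0.12 to 2.20), against 0.48 (SD 0.65) over the 6296 optimal peaks found in both lists. The lists have a scale each, so only the distance from the median of all peaks can be read. The peak of bcd, at 0.53, and that of Vps36, at 0.52, were near that median. The high peaks at both ends of exu were at 0.15 and 0.50. Apart from the rest stood the Fem-1 intron peak next to exu, at 2.20, and the Marf intron peak next to swa, at 2.02, above 98.6% and 98% of all optimal peaks.

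**Figure D3:**
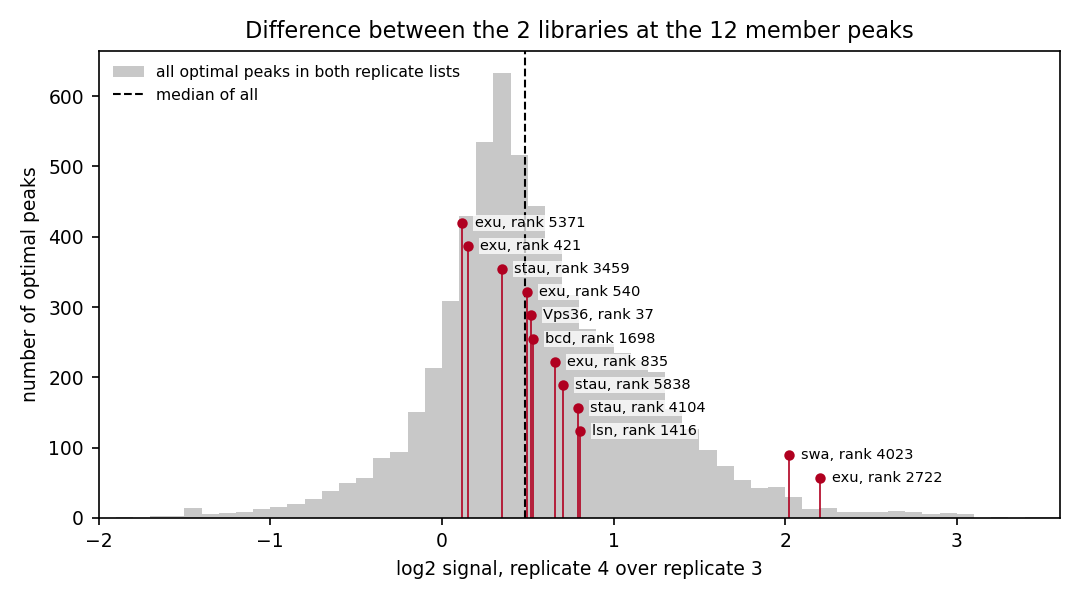
Number of optimal peaks by log2 ratio of replicate 4 over replicate 3 signal (grey, 6296 peaks, median dashed), with the 12 peaks in or near the 7 genes as red lines labelled by gene and rank. The line heights carry no value. The other lines lie within the bulk of the grey peaks, and those of swa (rank 4023) and of the exu neighbour Fem-1 (rank 2722) lie at 2.02 and 2.20.

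Not all peaks of the longer lists were shared between the libraries. Of the 49 replicate 3 peaks in or near the 7 genes, 28 (57.1%) overlapped a replicate 4 peak, against 70.4% of all 30000. Of the 36 replicate 4 peaks, 26 (72.2%) overlapped a replicate 3 peak, against 67.6% of all. At Vps25, the replicate 3 peak with its summit 284 bp upstream overlapped a replicate 4 peak whose summit lay 701 bp upstream (23.1, rank 14497). The peak 2821 bp upstream of lsn (pooled 64.4, rank 8836) had a signal of 58.9 in replicate 4 and no counterpart in replicate 3.

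Many of these promoters are shared with a neighbour. A divergent protein-coding start lay within 1000 bp of 4 of the 7 start regions: 121 bp from exu (galla-1), 142 bp from Vps36 (Liprin-beta), 241 bp from swa (Marf) and 568 bp from stau (Spn55B). This was 57.1% of the genes, against 36.2% of protein-coding genes. Of the 4 genes with such a neighbour 3 had an optimal start-site summit, and of the 3 without one only bcd did. Over all protein-coding genes the shares were 68.9% of the 5052 with such a neighbour and 22.1% of the 8893 without one. The bcd promoter was thus in the class where a start-site summit was less frequent in the series.

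Motifs were searched on both strands within 100 bp of the 12 optimal summits. The consensus with at most 2 mismatches was found at none of the 12, against 6.7% of all 6318 optimal summits and 3.52% of 19253 protein-coding start sites with windows of the same length. The exact core was likewise at none, against 2.5% of summits and 0.878% of start sites. The bcd core lay outside this window, and the window covers less than the peak. The DNA replication-related element, TATCGATA, was found at both high exu summits, the 5′ one with 2 copies and that in the 3′ untranslated region with 1, against 15% of summits. AGCCCTG was found at the 5′ exu summit and at the nearest stau summit, against 4.5% of summits. The Motif 1 core, GGTCACAC, was found at the exu summit next to Fem-1 and at the stau summit next to Spn55B, against 8.66% of summits. It was also centred 20 bp upstream of the swa start, in the stretch printed above, as in 3.83% of 250 bp upstream windows. An E-box, CAGCTG, was found at the 5′ exu summit (14.1% of summits) and the Zelda motif, CAGGTAG, at none of the 12 (0.807%). Upstream of Vps36, a copy of TATCGATA was centred 244 bp from the start, at 13513356, as in 6.9% of 250 bp upstream windows. It lay inside the peak, nearer to the further replicate 3 summit than to the replicate 4 summit. This position is outside the printed stretch and within Liprin-beta, just upstream of a second start site of that gene at 13513364. None of these motifs lay within 100 bp of the optimal summits at bcd, Vps36, swa or lsn, which says only that these letters are not in those windows.

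By signal in the pooled list and both libraries, the genes most like bcd among 5421 protein-coding genes were Cnb and mu2, which share a summit, and CG3356. The shared summit had signals of 473 in the optimal set, 201 in replicate 3 and 283 in replicate 4, and lay 78 bp upstream of Cnb and 202 bp upstream of mu2. CG3356 had signals of 480, 194 and 292 in the same lists. The distances from bcd, over 3 log2 signals, were 0.0379 for the shared summit and 0.0425 for CG3356.

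The other ESCRT genes were counted next. Of the 3 ESCRT-II genes 1 had an optimal start-site summit, against 12 of the 16 other ESCRT genes (75%) and 39.0% of protein-coding genes. The signals of the 12 ran from 100.2, close to the 99.8 of the lowest optimal peak, to 933. Their median was 228, and all were below the 3852 of Vps36. The highest were CHMP2B, a subunit of ESCRT-III (933, rank 937), the ESCRT-I genes Vsp37A (365; spelled as in the annotation) and Vps28 (356), and Vps60 (300.4), a further ESCRT-III protein. CHMP2B had 277 in replicate 3 and 661 in replicate 4. The 4 without one were Stam, Vps37B, Chmp1 and Vta1, and each had a weaker start-site summit in both libraries, with the lowest signal, 25.4, and the highest, 64.4, both at Vta1 (replicates 3 and 4). In replicate 3, Vps25 (13.7) and lsn (12.7) were below each of the 4. In replicate 4, Vps25 had no start-site summit, and lsn (28.8) was above Stam (27.8) and below the other 3.

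Of 27 other genes of RNA localisation in the oocyte and of bcd translation, 21 (77.8%) had an optimal start-site summit, against 39.0% of protein-coding genes. Their signals ran from 101.6 to 1950 with a median of 316. The lowest signal of any optimal peak was 99.8, so the weakest genes of this list stood close to that limit. A gene counted here had no start-site summit in the replicate 4 list. Both pathway lists were chosen with earlier results of these data known, and their shares were not tested. The highest were nanos, the posterior translational repressor (1950, rank 296), mago and tsu, which encode the core pair of the exon junction complex needed to localise oskar RNA (1725 and 1349), and brat, a translational repressor that acts with Pumilio and Nanos (1614). Of the 6 without one, 4 had a weaker summit in both libraries and 2 in neither. bcd itself, at 480, lay above the median of this list, exu near its upper end and stau below the median.

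**Figure D4:**
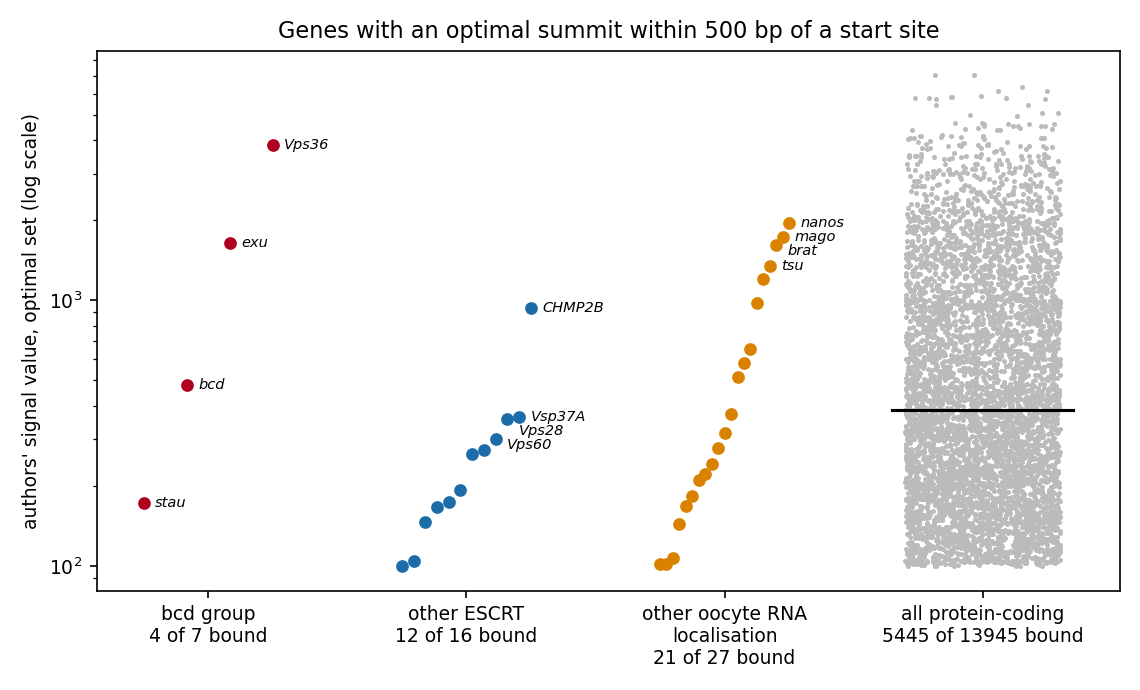
Signal in the optimal set (log scale) of each gene with a summit within 500 bp of a start site, for bcd and the genes described with it (4 of 7), the other ESCRT genes (12 of 16), the other oocyte RNA localisation genes (21 of 27) and all protein-coding genes (5445 of 13945, spread sideways at random, median 386 as a line). Vps36 stands above the highest gene of both other lists.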

How the data were processed

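Peaks of both libraries were used as the authors deposited them in the narrowPeak layout, in build dm6. The deposited READMEs state that a list per library was called against a control, a pooled list from both alignments together, and the optimal set from these 3 by the irreproducible discovery rate. The sources used here do not name the peak caller, versions or thresholds. The deposited signal value, the authors' measure of peak height, gave all ranks. The deposited −log10 q value stood at its top for all optimal peaks and was used only to describe peaks. No column was left unmapped (0). Read totals are unknown, so no interval that needs a depth is given.

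Start sites and genes came from Ensembl release 115 (BDGP 6.54), protein-coding genes on 2L, 2R, 3L, 3R, 4 and X. A peak counted as near a gene when it overlapped the gene widened by 5 kb by at least 1 bp. Sequence came from RefSeq for the same build. The 7 genes, the lists, the motifs and the counts were chosen with earlier results of these data known. No test was run, because there was 1 group and the genes were chosen. Named genes were the 7, protein-coding genes with a start within 500 bp of their optimal summits, the 4 highest of each pathway list and all of its unbound genes where 5 or fewer, and the 3 genes nearest bcd in log2 signal. Other neighbours (Ama, Gle1, Marf, swaPsi and, in figures, further genes) are named for position. For 3 list entries the symbol was brought to the annotation's spelling. The code for start-site assignment and motif search was checked on simulated data, recovering 200 of 200 planted items in each. All items were planted within the search limits, so false matches and assignment between neighbouring genes were not checked. Python 3.11.15, pandas 2.3.3 and NumPy 2.4.6 were used.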

Additional observations from a re-analysis of the deposited data

How the results depend on the processing

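Shares in brackets are those of all protein-coding genes. Of the 7 genes, 4 had an optimal start-site summit with a 250 bp window (34.5%), with the start of the longest transcript only (36.5%) and with 1 summit per region (38.7%). A 1000 bp window gave 5 (42%, swa added), and the 3159 optimal peaks of highest signal gave 3 (26.5%, stau lost). Taking the 6318 highest peaks of 1 library in place of the optimal set (without replicate 3 or without replicate 4) gave 4 both times (38.6% and 38.5%). A peak within reach was found for 5 genes at 2 kb (54%), 7 at 10 kb (73.5%) and 4 with those 3159 peaks (49.7%). Without replicate 3 it was 6 (64.6%), and without replicate 4 it was 5 (63.4%), since swa was lost. Those 3159 peaks lowered the ESCRT count from 12 to 6 of 16 and the RNA localisation count from 21 to 13 of 27. Protein-coding genes went from 5445 to 3695 (26.5% in place of 39%), as fewer peaks are counted by construction. Part of each count, that of this background included, thus rested on the weaker optimal peaks. Whether the lists lost more of their bound genes than the background was not tested. Leaving out a library gave 11 to 12 for the ESCRT genes and 18 to 20 for the RNA localisation genes. The ESCRT genes counted were not all the same, as Vta1 was gained without replicate 3 and Chmp1 without replicate 4, while others were lost. The consensus count at start-site summits was 1 (Vps36) with at most 3 mismatches, a match that 26.4% of all optimal summits had. It was 0 under every other setting tried, where 1.33% to 9.2% of all summits had a match. With 50% reciprocal overlap the median log2 ratio was 0.53 (n = 9 peaks), against 0.43 over the 4988 optimal peaks with such overlap. At start-site peaks alone this median was 0.53 (n = 6 peaks), against 0.48 over all optimal peaks. It needs both libraries, so none could be left out. By replicate 3 alone, the rank of the Fem-1 intron peak was 5725 in place of 2722, that of the Marf intron peak 8016 in place of 4023, and that of Vps36 56 in place of 37. No paired analysis was possible because there is only 1 group. Without read totals, a peak missing from a list is not shown to be absent.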
